A study of Homo sapiens with 6 samples.

Results

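The regions described here are 4382 binding sites of the histone demethylase LSD1 that carried neither H3K4me2 nor H3K4me1 themselves but lay close to chromatin that did, and that were found both without and with an LSD1 inhibitor. They were chosen by overlap from the authors' peak lists. A DMSO LSD1 peak entered when it shared at least 1 bp with an LSD1 peak from inhibitor-treated cells ("retained"), shared no base with an H3K4me2 or H3K4me1 interval ("unmarked"), and had the nearest interval of either mark within 10 kb, measured between edges. Of 45188 DMSO LSD1 peaks, 28538 were retained (63.2% of all), 17968 were unmarked (39.8% of all) and 8042 were both (44.8% of the unmarked). Of the unmarked peaks, 52.8% had a mark within 10 kb. The 4382 near-mark unmarked peaks were 9.70% of the DMSO list and 54.5% of the retained unmarked peaks, and the other 3660 retained unmarked peaks lay farther than 10 kb from either mark. These shares follow from the rule and describe the choice of the regions.

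The cells were NCI-H526, an established human small cell lung cancer line, labelled as epithelial. DMSO, the vehicle, was given to the control cells, and the treated cells received the LSD1 inhibitor GSK2879552 (GSK552 in the labels) at 1 µM for 24 h. The labels attach the same treatment text to every sample, and the group is taken from the description of each. Chromatin immunoprecipitation with sequencing gave 4 peak lists, for LSD1 under both treatments and for H3K4me2 and H3K4me1 in the vehicle-treated cells. All are single libraries of a single cell line, so a difference between lists compares 2 libraries and has no replicate check, and no p-value is given. Intervals in parentheses are 95% Wilson intervals for shares and Newcombe intervals for differences of shares. They reflect the number of peaks alone, and peaks that lie close together share their source.

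As background, LSD1 (KDM1A) works within the CoREST complex, where it removes methyl groups from mono- and dimethylated lysine 4 of histone H3. It has no DNA-binding domain that reads a sequence by itself and is brought to chromatin by transcription factors such as GFI1, GFI1B and INSM1, or by CoREST. H3K4me1 is typical of enhancers, and H3K4me2 is found at enhancers and promoters, often on the nucleosomes that border an open stretch of DNA.

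The lists differ in ways that bear on these sites. The LSD1 peaks were called as broad peaks down to a −log10 q of 1.00 (DMSO) and 1.01 (inhibitor), while the 81619 H3K4me2 and 94689 H3K4me1 intervals reach only down to 2.02 and 2.01. "Unmarked" thus means that no interval was called at that stricter level. The sources used here give no read depth. Positions are on hg19, and no gene is named at a position because the gene table used here is on another build.

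The near-mark unmarked sites were of middling strength for LSD1 and narrow. Fold enrichment, the authors' value for each peak over the caller's background, had a median of 3.75 with DMSO, with 90% of peaks between 3.07 and 5.74 and a highest value of 10.6. The matching inhibitor peaks had a median fold of 4.21, with 90% between 3.12 and 6.77 and a highest value of 12.9. Folds of the 2 lists depend on each library and are set side by side here, not compared. In the DMSO list the median score percentile was 60.8, against 63.7 for the far retained unmarked peaks, 68.8 for retained peaks with both marks, 66.4 for those with H3K4me1 alone and 53.9 for those with H3K4me2 alone. Strength therefore differed little between unmarked sites near and far from marks, and the ranges overlapped almost fully.

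Width separated the sites by their marks more than fold did. The near-mark unmarked peaks had a median width of 382 bp with DMSO, close to the 378 bp of the far ones. The medians of the marked classes were higher, at 468 bp with H3K4me1 alone, 628 bp with H3K4me2 alone and 787 bp with both marks. Under the 1 bp rule a wider peak has more bases that can touch an interval, and the part of this in the widths was not tested. With inhibitor the medians were 362 bp for the near-mark sites and 291 bp for the far sites. Of the near-mark sites, 58.3% (56.8 to 59.7%) had a −log10 q of 2 or more with DMSO, against 62.4% of the far retained unmarked ones. It was 68.1% of retained peaks with both marks, 65.1% with H3K4me1 alone and 50.2% with H3K4me2 alone. Among the 1000 highest-scoring DMSO peaks were 119 of the sites (2.72%), against 4.10% of the far ones. For the marked classes, in the same order, the shares were 4.63%, 5.23% and 1.04%. Over all DMSO peaks the 2 shares were 48.0% and 2.21%, but these include peaks not found with inhibitor. Of the unmarked near-mark peaks not found with inhibitor, 23.1% had such a −log10 q and 0 of 5113 were among the 1000.

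**Figure D1:**
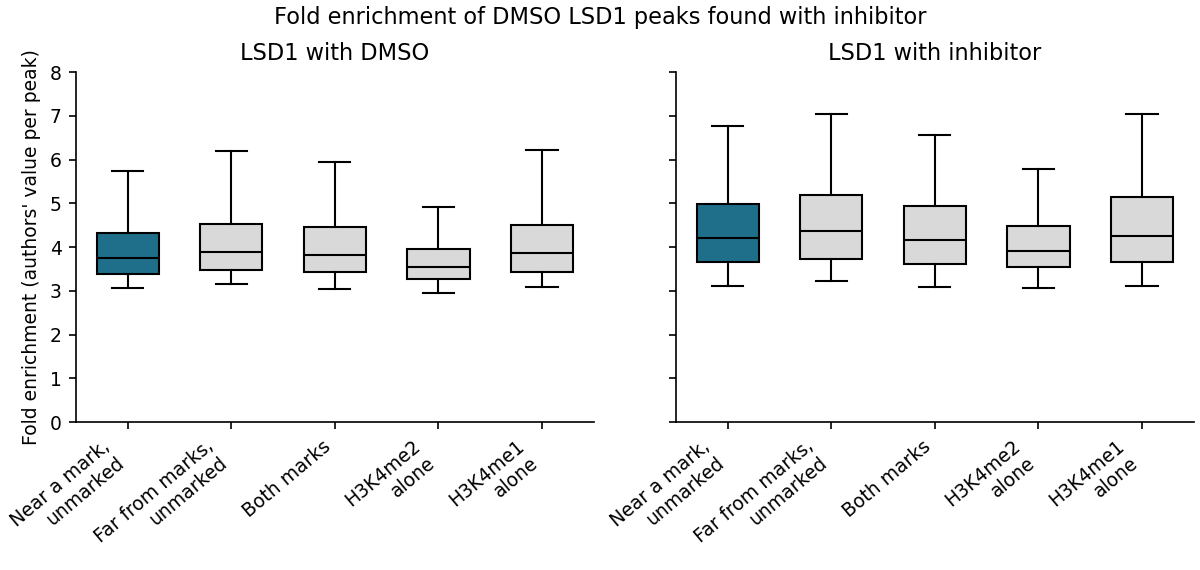
Fold enrichment per peak (vertical axis, linear, authors' value) for DMSO LSD1 peaks found with inhibitor, by the marks they overlap, in the DMSO list (left) and the inhibitor list (right). Lines in the boxes are medians, boxes span the 25th to 75th percentile and whiskers the 5th to 95th. The near-mark unmarked peaks (filled) have medians of 3.75 and 4.21, inside the boxes of every other class.

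The strongest near-mark unmarked site lay at chr14:89761495-89763020. It had a fold of 10.3 and a −log10 q of 24.7 with DMSO (rank 11 of the list) and a fold of 10.98 and a −log10 q of 28.6 with inhibitor (rank 14). Its nearest mark was an H3K4me1 interval 6449 bp to the right, with H3K4me2 at 7080 bp and no mark on the left for 103526 bp. It lay at the edge of a long unmarked stretch.

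The next site, chr11:72915953-72919034, was among the 5 widest of all the near-mark unmarked peaks at 3082 bp. Its fold was 9.04 with DMSO and 5.64 with inhibitor, and it ranked 38 and 2561 in the lists. Marks flanked it at 3250 bp on the left and 9981 bp on the right. Another LSD1 peak stood 702 bp away. The site at chr10:7820586-7821637 had folds of 10.6 and 7.07 and ranks of 45 and 402, with the nearest mark, H3K4me2, at 6410 bp.

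Some of the strongest sites almost touched a mark. At chr7:89192465-89193108 (folds 7.91 and 5.87), an H3K4me2 interval began 43 bp to the right and another mark ended 120 bp to the left, so the 644 bp peak filled most of an 807 bp window. With inhibitor the peak was 823 bp wide and overlapped a mark. At chr1:99440753-99441574 (folds 10.1 and 6.39), an H3K4me1 interval of 249 bp lay 181 bp to the left, and no mark lay to the right for 27849 bp. The site at chr14:27407052-27408006 (folds 10.1 and 8.46) had H3K4me1 at 261 bp and H3K4me2 only at 76919 bp.

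The site at chr12:7795535-7796167 had a fold of 7.87 with DMSO (rank 137) and 10.96 with inhibitor (rank 23). It lay 1888 bp from an H3K4me2 interval, 872 bp wide, that carried a DMSO LSD1 peak of its own. The remaining 3 of the 10 highest-scoring sites were chr2:15460991-15463962 (fold 3.18 with DMSO and 2.71 with inhibitor), chr11:117369084-117370163 (7.18 and 4.97) and chr22:23182038-23183948 (8.33 and 5.23). Across the 10 sites the gap to a mark ranged from 43 to 9318 bp, H3K4me1 was the nearest mark at 6 and H3K4me2 at 4, and 5 had another DMSO LSD1 peak within 12500 bp. Their ranks ran from 11 to 137 with DMSO and from 14 to 6105 with inhibitor.

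Within the 10 kb limit the sites were spread unevenly. The median gap was 1236 bp, with 25% of sites within 222 bp and 25% beyond 4525 bp. A pile of sites stood directly beside the marks: 593 (13.5%) had a gap under 100 bp and 580 (13.2%) one of 100 to under 250 bp, while the whole stretch from 5 to 10 kb held 989 (22.6%). At 5 sites the LSD1 peak and a mark interval adjoined with no base between them. One of these was chr18:41824865-41825263 (fold 6.97 with DMSO, 7.33 with inhibitor), which met an H3K4me2 interval on the left, with H3K4me1 20 bp away.

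Fold values on the 2 sides of the outer limit overlapped. The 5 sites just inside 10 kb had gaps of 9964 to 9990 bp, such as chr6:39270291-39271142 (gap 9990 bp, fold 3.58 with DMSO). The 5 retained unmarked peaks just outside had gaps of 10009 to 10033 bp, such as chr11:107449771-107450553 (gap 10009 bp, fold 3.34). Folds with DMSO ranged from 3.25 to 4.36 inside and from 1.97 to 5.01 outside. The 1.97 was at chr2:15616838-15617580, within the stretch of low folds on chromosome 2 described below, and the other outside peaks ran from 2.97 to 5.01.

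**Figure D2:**
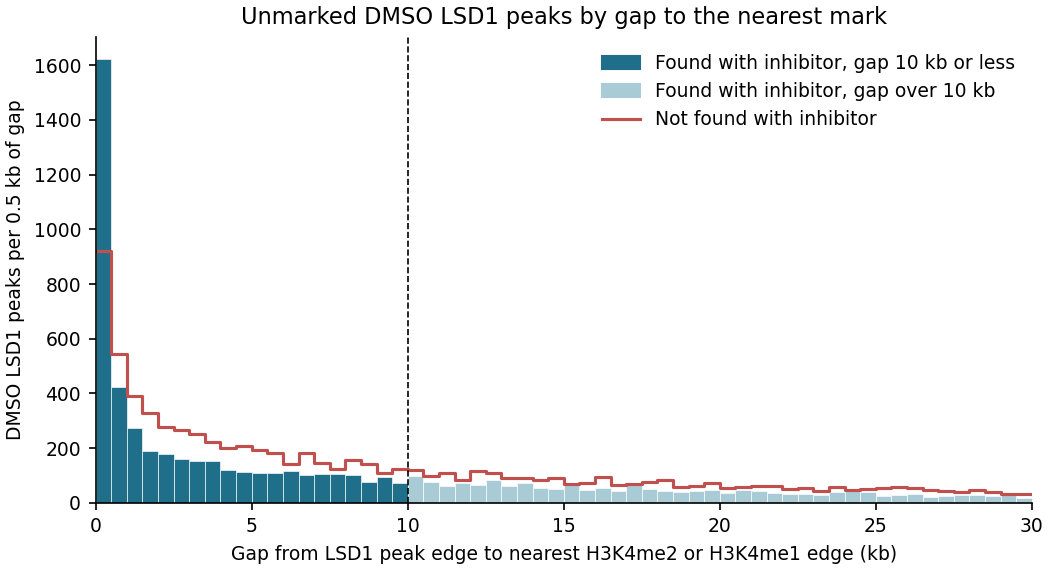
Number of unmarked DMSO LSD1 peaks per 0.5 kb of gap to the nearest H3K4me2 or H3K4me1 interval (horizontal axis, kb). Bars are peaks found with inhibitor, dark up to the 10 kb limit and light beyond it, and the line is peaks not found with inhibitor. Up to 10 kb the bars exceed the line only in the first bin (1623 against 921 peaks), and both fall after it.

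How often an unmarked peak was found again with inhibitor depended on this gap. The share retained was 70.1% (66.9 to 73.1%) of 846 unmarked peaks with a gap under 100 bp and 64.2% (61.0 to 67.3%) of 903 at 100 to under 250 bp. It was 56.6% (53.1 to 60.01%) at 250 to under 500 bp and 43.9% (40.8 to 47.0%) at 500 bp to under 1 kb. From 1 to 10 kb it stayed between 37.9% and 39.7%, and over 100 kb from a mark it was 48.7% (45.5 to 51.9%). For comparison, 75.3% of marked DMSO LSD1 peaks were retained. Being retained is part of the rule, so these shares are a description with no test.

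Peaks beside a mark were also somewhat stronger, with a median −log10 q of 2.08 under 100 bp and 1.64 at 1 to 2.5 kb among all unmarked DMSO peaks. The shares are therefore also given by score, in 5 bands of the DMSO score percentile, which tied scores leave unequal in size, again as a description. In the lowest band, 37.9% (32.7 to 43.5%) of peaks with a gap under 250 bp were retained against 19.5% (17.8 to 21.3%) at 1 to 10 kb. In the middle band the shares were 64.0% (58.7 to 69.0%) and 39.4% (36.7 to 42.1%), and in the highest band 90.1% (86.9 to 92.6%) and 81.2% (78.1 to 84.0%). Taken as a whole, unmarked peaks within 10 kb were retained little more often than those beyond it, at 46.2% (45.1 to 47.2%) and 43.2% (42.1 to 44.3%).

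Shares were also taken by the number of sides with a mark. With a mark within 1 kb on both sides, 370 of 520 unmarked peaks were retained (71.2%, 67.1 to 74.9%), and with one within 1 kb on a single side, 1679 of 2994 (56.1%, 54.3 to 57.8%). The former also had the higher median −log10 q, 2.11 against 1.86, and sites with a gap under 100 bp more often had a mark within 10 kb on both sides (53.3%) than those at 5 to 10 kb (7.48%). The kind of mark went with different shares at short range. Under 250 bp, 73.2% (69.9 to 76.4%) of peaks beside H3K4me2 and 62.8% (59.8 to 65.7%) of those beside H3K4me1 were retained. From 250 bp to under 1 kb the order was the other way round, at 43.9% (39.9 to 47.9%) and 52.5% (49.7 to 55.4%). The median −log10 q there was 1.64 beside H3K4me2 and 1.80 beside H3K4me1, and under 250 bp it was 2.05 and 2.12. The part of strength in these shares was not tested. From 1 to 10 kb the shares were 37.0% and 40.2%.

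H3K4me1 was the nearest mark more often than H3K4me2, at 2772 of the 4382 sites (63.3%, 61.8 to 64.7%) against 1609 (36.7%, 35.3 to 38.2%), with 1 tie. The H3K4me1 list is also the longer one. The split was similar for the far retained unmarked peaks, with H3K4me2 nearest at 36.3% to 40.8% by gap. It also depended on the overlap rule, since H3K4me2 was nearest at 49.3% of sites when they were chosen by peak centres. Both marks lay within 10 kb of 2591 sites (59.1%), H3K4me1 alone of 1205 (27.5%) and H3K4me2 alone of 586 (13.4%). The share with H3K4me2 nearest changed with the gap. It was 50.4% (46.4 to 54.4%) under 100 bp, 38.1% (34.2 to 42.1%) at 100 to under 250 bp, 29.6% (25.5 to 33.9%) at 250 to under 500 bp and 37.9% (34.9 to 41.0%) at 5 to 10 kb. H3K4me2 was thus most common as the neighbour of the sites that almost touched a mark.

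The nearest mark intervals were ordinary in strength and more often carried a single mark. Their median fold was 6.55 for H3K4me2 and 4.87 for H3K4me1, beside 6.04 and 5.01 over the whole lists, and their median widths were 460 and 372 bp beside 411 and 416 bp. These shares and medians count each site once, so an interval nearest to several sites enters several times: 1609 sites had 1540 distinct H3K4me2 intervals and 2772 had 2653 distinct H3K4me1 intervals. The nearest H3K4me2 interval overlapped H3K4me1 at 34.6% of sites (32.3 to 36.9%), against 63.1% of all H3K4me2 intervals. The nearest H3K4me1 interval overlapped H3K4me2 at 25.04% of sites (23.5 to 26.7%), against 47.4% of all H3K4me1 intervals. The rule asks only for the nearest edge of either mark, so where the marks overlap, the one that reaches farther is taken.

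Most of these nearest intervals held no LSD1 peak of their own. A DMSO LSD1 peak overlapped the nearest interval at 930 of the 4382 sites (21.2%, 20.04 to 22.5%). By mark the shares were 25.7% (23.6 to 27.9%) for H3K4me2 and 18.7% (17.2 to 20.1%) for H3K4me1, against 35.4% and 23.7% over the whole lists. The share rose with the gap, from 3.54% (2.33 to 5.35%) under 100 bp through 7.78% at 250 to under 500 bp and 25.2% at 500 bp to under 1 kb to 32.8% (29.3 to 36.5%) at 1 to 2.5 kb. No 2 DMSO LSD1 peaks in the list lay closer than 613 bp, and the nearest intervals had a median width of 406 bp at gaps under 100 bp. This spacing leaves little room for a second peak on the nearest interval at the closest sites. Nothing is read from the low share there. The closest sites also lower the shares over all sites, and from 1 to 10 kb the share was 30.6% to 32.8%.

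Of the 4382 sites, 1305 (29.8%, 28.4 to 31.2%) had a mark within 10 kb on both sides. The nearest marks of the 2 sides were H3K4me1 and H3K4me1 at 659 of these, one of each at 373, and H3K4me2 and H3K4me2 at 273. The unmarked window between the flanking intervals had a median of 5192 bp, or 3339 bp where both flanks were H3K4me2. In 396 cases it was 2 kb or less, and the LSD1 peak then filled a median of 39.7% of it. The narrowest window was 196 bp, around chr11:100732110-100732270 (161 bp, fold 3.39 with DMSO and 5.66 with inhibitor). Next came windows of 206 bp at chr5:102255022-102255177 (folds 4.34 and 4.86) and 220 bp at chrX:152110122-152110310 (folds 5.19 and 4.44). The inhibitor peak overlapped a mark at these 3 sites and in the window of 239 bp, but not in that of 235 bp around chr9:129373974-129374177. Over all 396 windows of 2 kb or less it did so in 208 (52.5%).

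Across all near-mark unmarked sites, the inhibitor peak itself overlapped a DMSO mark at 646 (14.7%, 13.7 to 15.8%), against 71.5% of all retained DMSO peaks, a background set mostly by peaks that carry a mark with DMSO. H3K4me2 was touched at 436 sites (9.95%) and H3K4me1 at 340 (7.76%). This depended on the gap, which an inhibitor peak that overlaps the site has to span to touch a mark. These inhibitor peaks had a median width of 362 bp, with 95% at 1265 bp or less, so a fall with the gap is built in. The inhibitor peak reached a mark at 346 of 593 sites with a gap under 100 bp (58.3%, 54.3 to 62.2%), 181 of 580 at 100 to under 250 bp (31.2%, 27.6 to 35.1%) and 24 of 425 at 500 bp to under 1 kb (5.65%). It did so at 0 of 1690 sites with a gap of 2.5 kb or more, which allows a share of up to 0.178% by the limit of 3 counts used for a count of 0, in place of a Wilson interval. Many of the closest sites are thus called unmarked in one library and would be marked by the edges of the other.

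The same choice made from the inhibitor list gave a similar figure in the other direction. There were 4592 inhibitor peaks that overlapped a DMSO LSD1 peak, carried no mark and had one within 10 kb, and the DMSO peak overlapped a mark at 839 of them (18.3%, 17.2 to 19.4%). At gaps under 250 bp, the inhibitor peak's centre lay nearer the mark than the DMSO peak's at 62.3% of sites (59.5 to 65.1%). The median shift toward the mark was 39.0 bp, with shifts away from it counted as negative. In the mirror choice the DMSO centre lay nearer the mark in 56.7% (54.0 to 59.4%), and the same median was 22.8 bp. At gaps of 1 kb or more the shares were 49.8% (47.8 to 51.8%) and 51.3% (49.3 to 53.3%). A shift toward the mark thus appeared at short gaps with either choice, and at gaps of 1 kb or more both intervals include 50%. Each choice keeps the chosen peak off the mark and does not limit its partner, so part of the shift is built in. The choices are not independent, since 3715 of the 4592 inhibitor peaks pair with the sites described here.

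Overlap between the 2 libraries was partial at many sites. The inhibitor peak covered a median of 73.0% of the DMSO peak, and 52.4% (50.9 to 53.8%) of the sites passed a reciprocal overlap of 50%, against 58.4% (56.8 to 60.002%) of the far retained unmarked peaks. The inhibitor peak was the wider one at 65.9% of sites with a gap under 100 bp, 44.6% at 1 to 2.5 kb and 39.4% at 5 to 10 kb. Median widths under 100 bp were 306 bp with DMSO and 422 bp with inhibitor, and at 5 to 10 kb they were 416 and 310 bp. The inhibitor peak was thus more often the wider one beside marks and less often away from them. The rule stops the DMSO peak short of the mark and does not limit the inhibitor peak, so part of this is built in. With a gap under 250 bp, the inhibitor peak reached a median of 53 bp farther toward the mark than the DMSO peak. In the mirror choice the DMSO peak reached 50.5 bp farther toward it than the inhibitor peak.

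**Figure D3:**
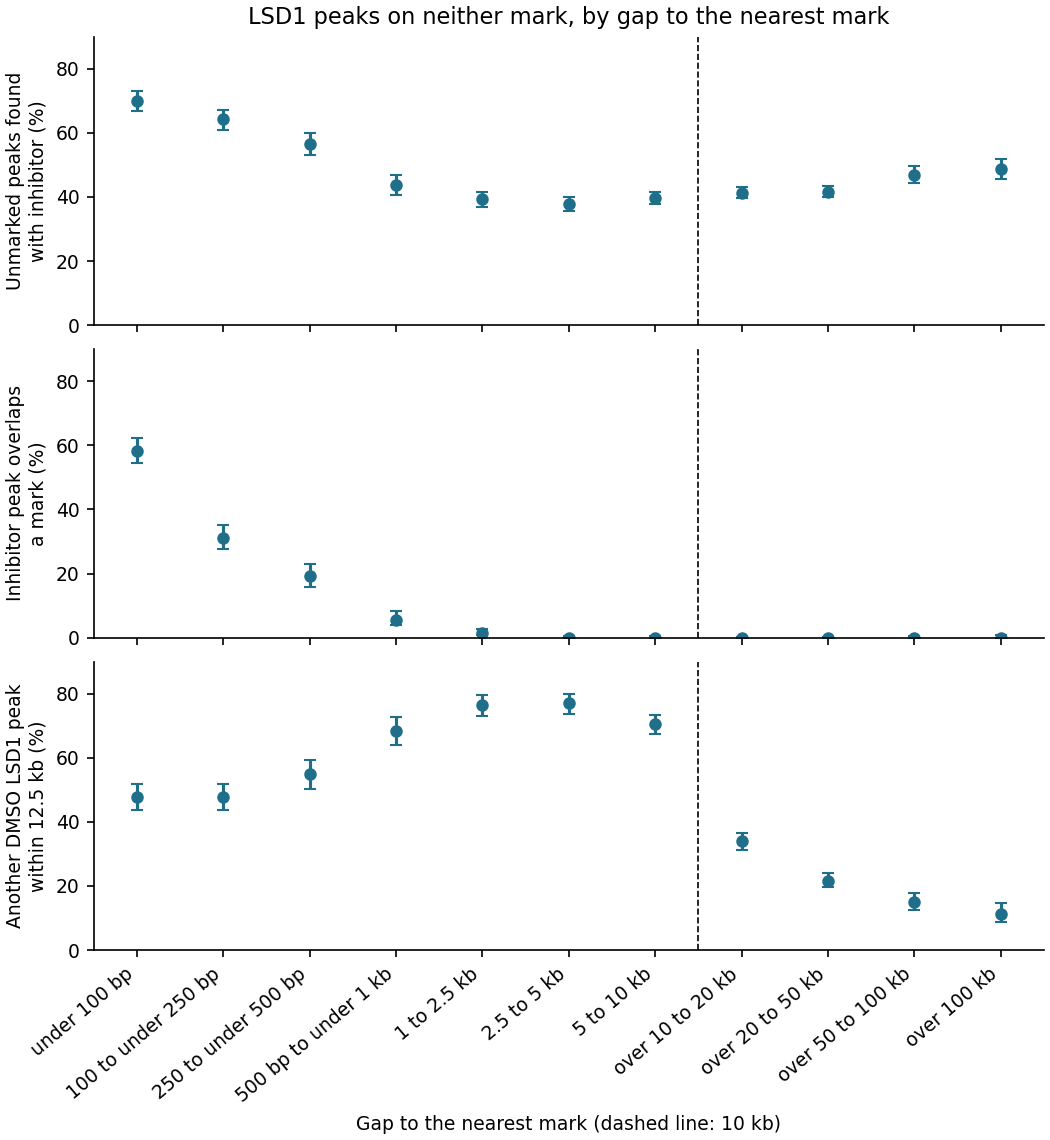
Retained share of unmarked DMSO LSD1 peaks (top), and, among the retained, the share whose inhibitor peak overlaps a mark (middle) and the share with another DMSO LSD1 peak within 12500 bp (bottom), in percent, by gap to the nearest mark. Points are shares, bars are 95% Wilson intervals, and the dashed line marks 10 kb. The upper panels fall over the first 1 kb, from 70.1% to 39.3% and from 58.3% to 1.40% at 1 to 2.5 kb, while the bottom panel rises from 47.7% to 76.4% and then drops beyond 10 kb.

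Most of the sites had another LSD1 peak nearby, although this depended on the weaker peaks. Another DMSO LSD1 peak lay within 12500 bp of 2827 sites (64.5%, 63.1 to 65.9%), against 54.7% of all DMSO LSD1 peaks and 71.2% (69.9 to 72.4%) of the unmarked near-mark peaks not found with inhibitor. The share of the sites fell to 40.1% when LSD1 peaks under a −log10 q of 2 were left out. It was 44.8% with the 50% of highest scores in each list. Leaving out peaks removes possible neighbours of any class, and the share of all DMSO peaks was not counted again under these settings. With all peaks kept, the share was 64.9% (64.0 to 65.7%) for retained peaks with both marks, a difference of −0.350 points (−2.02 to 1.31). For the far retained unmarked peaks it was 23.2% (21.9 to 24.6%), a difference of 41.3 points (39.3 to 43.2). Within 2 kb, 18.0% of the near-mark unmarked sites had a neighbour, against 20.7% of all DMSO peaks and 27.9% of those with both marks, a difference from the latter of −9.88 points (−11.3 to −8.46). Against retained peaks with H3K4me2 alone the difference was 15.2 points (13.3 to 17.0) within 12500 bp and −3.38 points (−4.88 to −1.86) within 2 kb. Against those with H3K4me1 alone it was 6.79 points (4.42 to 9.16) and −3.39 points (−5.35 to −1.46).

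The neighbours resembled the DMSO list as a whole in their marks and retention. Where there was a neighbour within 12500 bp, the nearest one overlapped a mark in 1806 of 2827 cases (63.9%, 62.1 to 65.6%). It was itself retained in 65.9% and unmarked in 36.1%, beside 63.2% and 39.8% of all DMSO LSD1 peaks. It belonged to the near-mark unmarked sites in 16.0%, beside their 9.70% of the DMSO list. That share was 9.32% for the neighbours of retained peaks with both marks and 4.71% for those of the far retained unmarked peaks. A neighbour of a near-mark site can have the same mark within 10 kb. The rule thus favours a higher share for these sites and a lower one for the far peaks, and its part was not tested. For retained peaks with both marks, 77.4% of the nearest neighbours overlapped a mark. Being within 10 kb of a mark places a site near the LSD1 peaks on that mark, so part of the gap to the far peaks is set by the rule. A marked LSD1 peak lay within 12500 bp of 50.4% of the near-mark sites and 3.63% of the far ones. Counting unmarked neighbours only, the shares were 32.2% (30.9 to 33.6%) and 20.6% (19.3 to 21.9%), a difference of 11.6 points (9.71 to 13.5).

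The sites closest to a mark had the fewest neighbours among the near-mark sites. Another LSD1 peak lay within 12500 bp of 47.7% (43.7 to 51.7%) of sites with a gap under 100 bp, 68.5% (63.9 to 72.7%) at 500 bp to under 1 kb and 77.0% (73.8 to 80.0%) at 2.5 to 5 kb. For unmarked neighbours alone the shares were 23.3%, 39.1% and 37.8%, so they too were lowest beside the mark.

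Stitching all DMSO LSD1 peaks over gaps of up to 12500 bp placed the 4382 sites in 3896 clusters. Of the sites, 1555 (35.5%) were alone in their cluster and 2302 (52.5%) shared it with a marked LSD1 peak. Of the clusters, 387 held 2 or more of the sites and 23 held 4 or more. The highest number was 7, in a cluster at chr19:802253-861860 with 16 DMSO LSD1 peaks over 59608 bp, of which 15 were unmarked and 10 retained. The 8 clusters with 5 or more sites were all on chromosome 19, and the next was at chr19:998137-1079679 with 6 sites, 6 marked LSD1 peaks and 16 peaks in all. A cluster at chr19:4566183-4600465 held 9 DMSO LSD1 peaks, 5 of them near-mark unmarked sites, and no marked LSD1 peak.

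The site with the most others around it was chr19:842140-843037 in the first of these clusters, with 5 more within 12500 bp. Its fold was 4.07 with DMSO and 4.86 with inhibitor, and the nearest mark was an H3K4me2 interval of 255 bp, 2767 bp away. Within 25 kb on either side stood 14 DMSO LSD1 peaks, 14 inhibitor LSD1 peaks, 5 H3K4me2 intervals and 1 H3K4me1 interval. LSD1 peaks were thus spread along the stretch, while the marks lay unevenly in it. No mark lay to the left of the site for 18315 bp. On its right, the H3K4me2 interval at 2767 bp was the only mark within 25 kb.

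**Figure D4:**
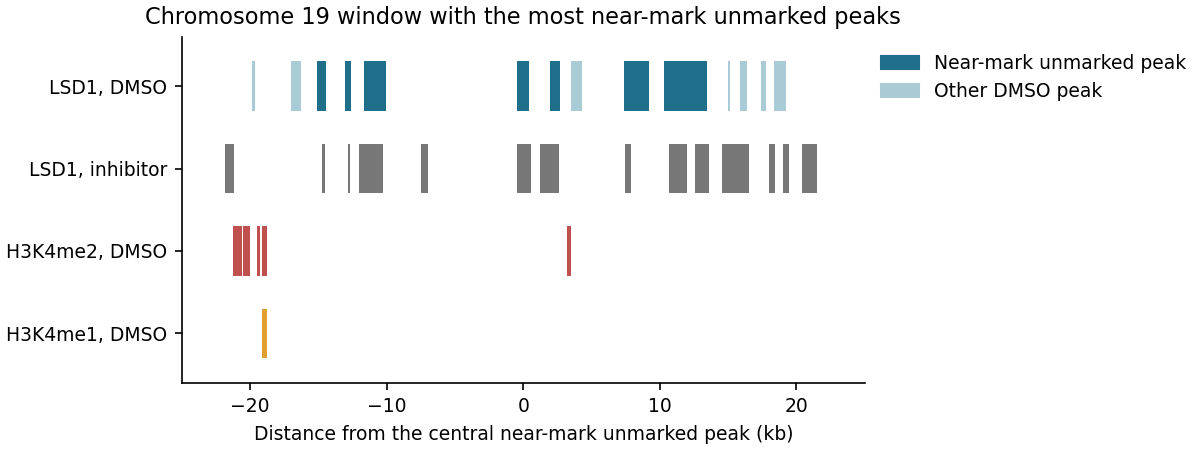
Map of the 25 kb on either side of chr19:842140-843037 (horizontal axis, kb from its centre), with boxes drawn to scale for the intervals of the 4 lists. Near-mark unmarked peaks are dark in the top row. The row of H3K4me2 holds 5 intervals and that of H3K4me1 holds 1, against 14 LSD1 peaks with each treatment, 7 of the DMSO peaks being near-mark unmarked sites.

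On chromosomes 19 and 22 these sites took a larger share of the retained peaks than elsewhere. They made up 280 of 1090 retained DMSO LSD1 peaks on chromosome 19 (25.7%, 23.2 to 28.4%) and 109 of 426 on chromosome 22 (25.6%, 21.7 to 29.9%). On the other 21 chromosomes with such sites, the share was 14.8% (14.4 to 15.2%) in all and 11.9% to 17.0% by chromosome. Density was highest on chromosome 19, at 4.74 per Mb, against 0.633 to 2.51 on those 21 and 2.13 on chromosome 22. All retained DMSO LSD1 peaks were also densest on chromosome 19, at 18.4 per Mb, against 3.85 to 15.7 on those 21 and 8.32 on chromosome 22. Mark intervals of both kinds together numbered 94.5 per Mb on chromosome 19, 66.2 on chromosome 22 and 28.9 to 100.7 on the others, and their part in the share was not tested.

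Of the retained peaks, 37.2% were unmarked on chromosome 19 and 33.8% on chromosome 22, against 21.4% on chromosome 15 to 34.2% on chromosome X among those 21. Of the retained unmarked peaks, 69.1% (64.5 to 73.4%) on chromosome 19 and 75.7% (68.1 to 82.0%) on chromosome 22 were near a mark. The shares near a mark elsewhere ran from 45.5% on chromosome 13 to 67.2% on chromosome 17. Median width by chromosome was highest for the sites on chromosome 19, at 517.5 bp, followed by 512 bp on chromosome 22. The far retained unmarked peaks also had their highest medians on these chromosomes, with 493 bp on chromosome 22 and a higher value on chromosome 19. Of the 32 sites of 2000 bp or more, 10 were on chromosome 19, including chr19:4571151-4574667, the widest at 3517 bp (fold 3.38 with DMSO). With inhibitor, the peak there was 441 bp wide, with a fold of 4.11. The first 6 Mb of the chromosome held 100 of its 280 sites and 242 of its 1090 retained DMSO LSD1 peaks, and the first 1 Mb held 24 sites, the highest count of any 1 Mb bin.

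**Figure D5:**
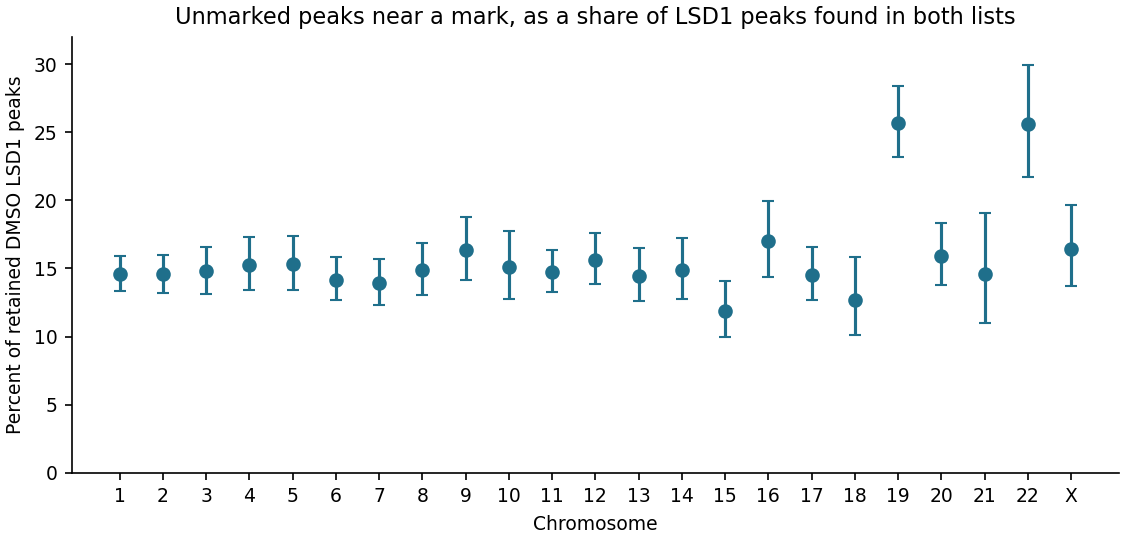
Near-mark unmarked LSD1 peaks as a percent of all retained DMSO LSD1 peaks (vertical axis) for chromosomes 1 to 22 and X, with 95% Wilson intervals. Chromosomes 19 and 22 stand at 25.7% and 25.6%, and the others lie between 11.9% and 17.0%. Chromosome Y is left out, with 0 of 7 retained peaks.

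A further dense stretch lay on chromosome 2. The 1 Mb bins starting at 15000001 and 16000001 held 17 and 14 sites. Of these, 23 had an implied background, the level at which a peak's fold and p-value fit together, of more than 6 times the list median. They spanned chr2:15244811-16401160, and no near-mark unmarked site elsewhere passed that level. Their median fold was 1.92 with DMSO and 1.85 with inhibitor, against 3.76 with DMSO for all other sites, while their median −log10 q of 2.79 was above the 2.23 of the others. The strongest, chr2:15460991-15463962, had a −log10 q of 18.0 with a fold of only 3.18. Its implied background was 7.67 times the median, and the DNA copy number of the stretch was not analysed here.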

How the data were processed

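Deposited peak lists were read for 4 of the 6 samples; the 2 inputs were not used. The submitters' processing notes name BWA, Picard and MACS2 2.0 with build hg19. Versions of BWA and Picard, the control, duplicate handling and read depth: not given in the sources used here. Files lacked a header and were read in the column order that MACS2 writes. The deposited score is 10 times the −log10 q as a whole number. The deposited fold is a ratio over the caller's background, and −log10 p and −log10 q, also deposited, belong to single peaks. The mark lists' 178083 and 175135 rows were reduced to distinct intervals with their highest values.

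Overlaps, gaps, neighbours and Wilson and Newcombe intervals were computed with Python 3.11.15, numpy 2.4.6, pandas 2.3.3 and scipy 1.17.1, and the searches were tested on simulated data with known answers. Where several inhibitor peaks overlapped a site, the highest-scoring one gave its values. The implied background is the Poisson mean at which a pileup of fold times that mean has the peak's p-value. Positions named follow a rule on score, gap, width, window and neighbours. The regions, the rule and the measures were chosen with earlier results of these data known. Single libraries allow no test. The gene table and promoter sequences used here are on GRCh38, so genes, motifs and sequences at these sites were not analysed here.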

Additional observations from a re-analysis of the deposited data

How the results depend on the processing

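No paired analysis was possible because the groups hold a single library each. Each value was held against limits around its main value. These were Wilson or Newcombe intervals, rank-based limits for medians, and a set band of 2921 to 6573 for the number of sites. Leaving out peaks of raised background, or chromosome X and Y, moved 0 of 9 values beyond these limits. For the other settings the cause was not tested, and the difference from far peaks in LSD1 neighbours kept its sign under all 8 alternatives. The rule sets part of this difference under every setting, because it keeps far peaks away from marks and from the LSD1 peaks on them. Nothing is read from the constant sign.

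With the 50% of highest scores in each list there were 2140 sites, with H3K4me2 nearest at 32.9%, marks on both sides at 23.5%, an inhibitor peak on a mark at 15.8%, an LSD1 neighbour at 44.8% (30.1 points above far peaks), LSD1 on the nearest interval at 16.9%, a median gap of 926 bp and a fold of 4.24. With LSD1 at a −log10 q of 2 or more, 2279 sites had an inhibitor peak on a mark at 16.4%, a neighbour at 40.1% (29.2 points), LSD1 on the nearest interval at 11.9%, a gap of 912 bp and a fold of 4.23. With marks within 5 kb, 3393 sites gave 23.3% (both sides), 19.04% (inhibitor peak on a mark), 62.8% (neighbour, 29.5 points), 18.5% (LSD1 on the nearest interval) and 562 bp. Within 20 kb, 5585 sites gave 41.0%, 11.6%, 57.9%, 22.5% and 2799 bp. With reciprocal overlap, 2294 sites gave 32.1% (H3K4me2 nearest), 28.3%, 8.81%, 61.2%, 19.1% and a fold of 3.88. With peak centres, 6908 sites gave 49.3% (H3K4me2 nearest), 52.9%, 55.9%, 56.4% (33.8 points), 7.28%, a gap of 215 bp and a fold of 3.87. Depth is unknown, so a weak peak missing from a list is not shown to be absent.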
